A study of Mus musculus with 12 samples.

Results

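The mouse heavy-chain V gene repertoire was read from RNA-seq counts of sorted splenic B cells. The members are the genes whose symbol begins with Ighv and whose annotated biotype is IG_V_gene, which gave 113 of the 50686 genes in each count table. All 113 lie on the minus strand of chromosome 12 (GRCm38), from chr12:113578504 to chr12:116000461, a span of 2.42 Mb. The number after Ighv names the subgroup, a set of V genes of similar sequence, and the members fall into 16 subgroups. Ighv1 has 53 members, Ighv5 has 10, Ighv2 and Ighv8 have 9 each, and 7 subgroups have 1 or 2 members. A further 70 Ighv entries are annotated as V pseudogenes and were kept apart.

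A heavy-chain V gene encodes most of the variable domain of an antibody heavy chain. Each developing B cell joins 1 V, 1 D and 1 J segment of the locus with the RAG recombinase and then transcribes mainly the V gene it has joined, so the V genes counted in a B cell population reflect which rearranged cells it holds. In the mouse, the Ighv1 subgroup (the J558 family) fills the part of the locus far from D and J, while Ighv5 and Ighv2 lie nearest to them.

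The study profiled spleen B cells of 12 mice that were sorted as B220-positive and positive for a fluorescent reporter, in order to compare 2 mouse models of the activated B cell-like (ABC) type of diffuse large B-cell lymphoma (DLBCL) with normal controls. YC mice (n = 3, genotype YFPstopF/+ Cg1Cre/+) were the controls and were sorted for YFP. BIC mice (n = 3, Blimp1F/F IKK2castopF/stopF Cg1Cre/+) and pBIC mice (n = 6, p53F/F Blimp1F/F IKK2castopF/stopF Cg1Cre/+) were sorted for GFP. All 3 groups carry the Cg1Cre allele, a Cre recombinase expressed from the IgG1 constant gene. Both models carry floxed Blimp1 (the gene Prdm1), a regulator of plasma cell differentiation, and a transgene for active IKK2 (the gene Ikbkb), a kinase of the NF-κB pathway, behind a stop cassette, and pBIC mice also carry floxed p53 (the gene Trp53). The age, sex and tumour stage of the mice are not given in the labels, and the controls differ from both models in the reporter that was sorted.

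Total counts per library ran from 33127283 to 47067627. In CPM, counts scaled to a common library total, Trp53 was at 137 to 147 in YC, 72.0 to 208 in BIC and 16.2 to 32.0 in pBIC, whose libraries were below all others. Ikbkb was at 217 to 249 CPM in YC, 381 to 538 CPM in BIC and 453 to 510 CPM in pBIC. Prdm1 is not reported here, so these values do not check the floxed Blimp1 allele. The summed level of 6 B cell markers (Cd79a, Cd79b, Ms4a1, Ptprc, Pax5 and Cd22) was 7104 to 8786 CPM in YC, 7820.1 to 8015 CPM in BIC and 2177 to 5929 CPM in pBIC. The 5 neutrophil genes summed to 43.0 to 1081 CPM in BIC, 1.54 to 191 CPM in YC and 3.43 to 63.1 CPM in pBIC, so BIC overlapped both. The 6 T cell genes summed to 38.0 to 117 CPM in BIC, above 8.09 to 17.7 CPM in YC and 7.09 to 31.1 CPM in pBIC. Cd3g made up most of the sum in BIC 1 (86.9 CPM) and BIC 2 (85.3 CPM), but not in BIC 3 (11.99 CPM). Each of the other T cell genes overlapped between BIC and pBIC. Against YC, Cd4 and Trac overlapped, while Cd3d, Cd3e and Cd8a were higher in every BIC library. Of both lists, edgeR called only 1 T cell gene in BIC against YC (higher), and 4 neutrophil genes and 1 T cell gene in pBIC against BIC (lower). Over all tested genes, 3.9% and 8.78% were called in these directions. The part of T cells and neutrophils in the results was not tested. In such bulk libraries, fewer cells that use a V gene and less V gene RNA per cell cannot be told apart.

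The reference sequences of V genes that led a tumour library are shown first, since the shares given here depend on whether reads of close relatives can be told apart. Each is the last 300 coding bases of the GENCODE M21 transcript on GRCm38, 5′ to 3′ on the minus strand, which lie within the V exon. Ighv2-9 (chr12:113879096-113879395) and its relative Ighv2-6-8 (chr12:113796138-113796437) were the 2 most counted members in pBIC 2 and pBIC 5. Capitals in Ighv2-6-8 mark the 11 bases that differ from Ighv2-9 in this stretch (96.3% identity), and the longest run the 2 genes share in it is 76 bases.
Ighv2-9: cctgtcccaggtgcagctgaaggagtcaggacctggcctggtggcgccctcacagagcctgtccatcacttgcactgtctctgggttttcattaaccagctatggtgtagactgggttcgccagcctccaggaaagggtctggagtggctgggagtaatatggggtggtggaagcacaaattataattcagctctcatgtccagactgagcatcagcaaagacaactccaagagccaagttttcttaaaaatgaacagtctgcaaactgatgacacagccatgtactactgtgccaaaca
Ighv2-6-8: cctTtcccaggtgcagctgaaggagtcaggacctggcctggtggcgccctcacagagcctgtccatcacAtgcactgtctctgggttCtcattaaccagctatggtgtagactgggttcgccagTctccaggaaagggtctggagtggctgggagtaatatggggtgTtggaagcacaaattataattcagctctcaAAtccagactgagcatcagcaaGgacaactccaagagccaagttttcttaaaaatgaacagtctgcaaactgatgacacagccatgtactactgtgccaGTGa

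Ighv5-4 (chr12:113597446-113597745), Ighv5-12 (chr12:113702124-113702423) and Ighv5-6 (chr12:113625506-113625805) held most counts of pBIC 1 and were also high in BIC 3. Capitals mark the bases that differ from Ighv5-4, which are 20 in Ighv5-12 (93.3% identity, longest shared run 53 bases) and 14 in Ighv5-6 (95.3%, 68 bases). Unmutated reads of 100 bases are longer than these runs.
Ighv5-4: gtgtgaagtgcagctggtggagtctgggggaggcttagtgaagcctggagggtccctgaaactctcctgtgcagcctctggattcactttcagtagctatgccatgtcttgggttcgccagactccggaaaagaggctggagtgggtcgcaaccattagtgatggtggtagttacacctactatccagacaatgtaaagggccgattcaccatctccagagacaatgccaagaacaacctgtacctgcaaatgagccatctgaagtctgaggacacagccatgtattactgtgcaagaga
Ighv5-12: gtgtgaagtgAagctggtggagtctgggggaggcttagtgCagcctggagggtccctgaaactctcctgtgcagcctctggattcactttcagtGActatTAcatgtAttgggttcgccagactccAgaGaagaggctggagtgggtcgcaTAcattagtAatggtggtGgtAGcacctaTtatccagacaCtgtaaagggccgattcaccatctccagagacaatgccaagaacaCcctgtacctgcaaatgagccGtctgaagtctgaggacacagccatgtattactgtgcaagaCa
Ighv5-6: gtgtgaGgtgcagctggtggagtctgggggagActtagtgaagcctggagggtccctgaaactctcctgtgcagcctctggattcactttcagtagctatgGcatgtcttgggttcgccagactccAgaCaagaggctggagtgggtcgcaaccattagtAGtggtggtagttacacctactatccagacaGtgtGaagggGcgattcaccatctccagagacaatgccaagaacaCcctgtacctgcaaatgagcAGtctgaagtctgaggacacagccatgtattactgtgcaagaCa

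Ighv12-3 (chr12:114366521-114366820), the sole Ighv12 member, was among the leading genes of BIC 2 and BIC 3, and Ighv9-3 (chr12:114140692-114140991) led pBIC 6. In both, capitals mark the codon of the conserved cysteine at the end of framework 3, found as the last TGT that is followed by GC. Over whole transcripts, Ighv12-3 was 77.7% identical to its nearest relative among the members, Ighv3-1, and Ighv9-3 was 94.3% identical to Ighv9-2.
Ighv12-3: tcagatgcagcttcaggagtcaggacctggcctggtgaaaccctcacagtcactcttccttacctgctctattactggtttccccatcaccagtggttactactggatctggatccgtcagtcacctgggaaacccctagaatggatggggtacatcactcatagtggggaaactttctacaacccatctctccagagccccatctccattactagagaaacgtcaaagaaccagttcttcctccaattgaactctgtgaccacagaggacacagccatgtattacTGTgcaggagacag
Ighv9-3: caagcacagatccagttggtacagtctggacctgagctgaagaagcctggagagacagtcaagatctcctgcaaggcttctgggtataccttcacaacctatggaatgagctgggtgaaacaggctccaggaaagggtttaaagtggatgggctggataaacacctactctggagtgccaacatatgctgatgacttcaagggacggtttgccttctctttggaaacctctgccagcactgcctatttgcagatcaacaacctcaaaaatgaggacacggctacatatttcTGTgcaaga

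Of the 113 members, 75 hold no stretch of 100 bases that is found in another member or in a V pseudogene entry. A further 2 have under 50% of such stretches to themselves. The median identity of 2 transcripts was 84.3% within a subgroup and 58.9% between subgroups. Joining members that are at least 90% identical left 35 groups, the largest of 42 genes. Identity was taken over the overlapping bases, with no minimum overlap. Some pairs of different subgroups thus reached 100% (Ighv14-1 with Ighv8-2, Ighv1-64 with Ighv8-6), though every 100-base stretch of Ighv14-1 and Ighv1-64 is unique. The joined groups therefore mix subgroups in part and are not sets of close relatives alone. Shares below are percent of the summed Ighv counts of a library. Members differ in exon length from 294 to 480 bases, and the most counted gene was the same per base of exon in every library other than pBIC 1.

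In the YC controls the counts were spread over most of the repertoire. A count was present in every YC library for 105 of the 113 members. The most counted gene was Ighv1-53 in YC 1 (6.86%), Ighv1-22 in YC 2 (8.89%) and Ighv1-53 in YC 3 (8.54%). In YC 1, YC 2 and YC 3, 34, 28 and 33 members held at least 1% of the counts.

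The 5 members with the highest mean share in YC came from 3 subgroups. Ighv1-53 was at 6.86, 2.93 and 8.54% (mean 6.11% ± 2.88, SD, n = 3). Ighv3-6 was at 6.23, 5.41 and 5.39% (5.68% ± 0.479). Ighv9-3 was at 5.26, 3.00 and 5.11% (4.46% ± 1.26). These 3 genes were high in all 3 mice. Ighv1-22 was high in YC 2 alone, at 0.558, 8.89 and 0.617% (3.35% ± 4.79), while Ighv1-26 was even, at 3.33, 3.10 and 2.97%. Ighv1-22 and Ighv1-26 are 96.6% identical, and the longest run they share is 60 bases. Counted per unique 100-base stretch, Ighv1-71, which has 3.08% of its stretches to itself, would lead YC 1 and YC 3.

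The BIC libraries each concentrated on a few V genes, and the genes differed between mice. In BIC 1, Ighv1-64 held 38.7% of the counts, Ighv1-53 held 32.8% and Ighv1-74 held 7.29%. These 3 members are 93.7 to 95.4% identical to each other, and per unique 100-base stretch Ighv1-53 came first in that library. In BIC 2, Ighv1-9 held 68.3% (95% Wilson interval 68.0 to 68.7%), Ighv12-3 held 22.5% and Ighv2-3 held 6.77%. Those 3 genes belong to 3 subgroups. In BIC 3, Ighv12-3 held 32.5%, Ighv5-12 held 17.4% and Ighv5-4 held 16.9%, with Ighv5-6 at 7.62% and Ighv5-9 at 4.61%.

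Ighv12-3 was the single member that was among the 2 most counted genes of 2 BIC mice. Its share was 0.313, 0.586 and 0.302% in YC, 0.188, 22.5 and 32.5% in BIC, and 0.00771 to 1.69% (median 0.368%) in pBIC. BIC 2 and BIC 3 were far above all other libraries, and BIC 1 was below every YC library. In the normal controls Ighv12-3 ranked 64th of the 113 members by mean share.

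The pBIC libraries were dominated by 1 to 5 members each. In pBIC 2 and pBIC 5, Ighv2-9 held 92.2% (Wilson interval 92.0 to 92.5%) and 94.9% (94.7 to 95.05%), and Ighv2-6-8 came second with 4.11 and 4.89%. In pBIC 6, Ighv9-3 held 94.6%, followed by Ighv1-26 with 2.25%. These 3 libraries had nearly all of their counts in a single gene.

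In pBIC 4, Ighv1-56 held 55.02% and Ighv1-72 held 32.3%. The transcripts of these 2 are 85.2% identical. In pBIC 1, Ighv5-4 held 36.0%, Ighv5-12 held 34.2%, Ighv5-6 held 13.5%, Ighv5-9 held 9.17% and Ighv5-9-1 held 6.05%, so the counts stayed within 1 subgroup but were divided over 5 of its genes, which are 90.8 to 95.5% identical. Per base of exon, Ighv5-12 came first there with 37.4%. In pBIC 3, with 5609 Ighv counts the shallowest library for these genes, Ighv2-6-8 held 30.1% (28.9 to 31.3%), Ighv1-20 held 29.4% and Ighv3-1 held 21.7%, 3 genes of 3 subgroups. Whether a library with several leading genes held several clones, 1 clone with mutated V sequence or both was not tested.

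Some leading genes of the tumours were well used in the controls and others were not. Of the 9 tumour libraries, 5 were led by a gene among the 12 most counted in YC. These genes were Ighv9-3 (3rd, in pBIC 6), Ighv1-9 (6th, in BIC 2), Ighv5-4 (7th, in pBIC 1) and Ighv2-9 (12th, at 1.15, 3.44 and 1.61%, in pBIC 2 and pBIC 5). Ighv1-53, the most counted gene in YC, came second in BIC 1 behind Ighv1-64, which ranked 16th. The other leaders ranked lower. Ighv2-6-8, which led pBIC 3, ranked 63rd. In that library Ighv1-20 was close behind it (29.4%) and came first per unique 100-base stretch (32.7%). Ighv1-56, which led pBIC 4, ranked 96th in YC, at 0.0483, 0.0312 and 0.0563%, and was at 0 counts in the other 5 pBIC libraries.

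**Figure D1:**
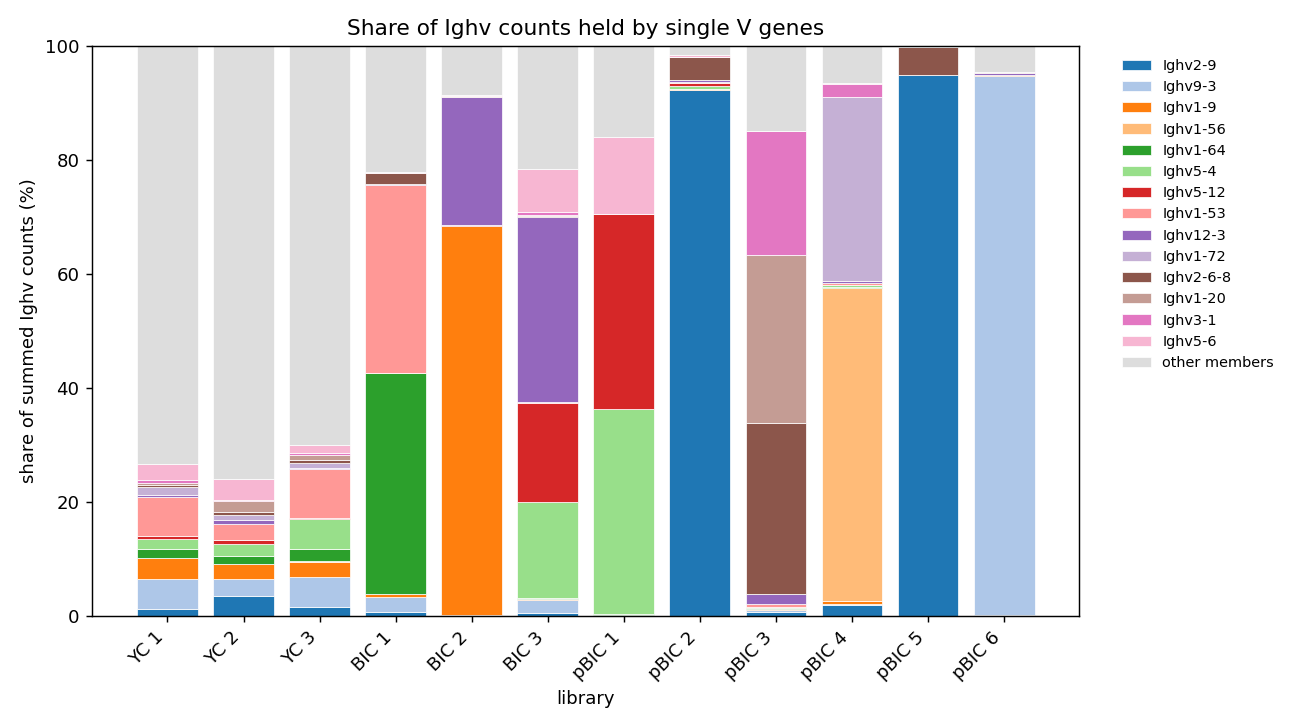
Share of the summed Ighv counts (y axis, percent) held by single V genes in each library (x axis), as stacked bars, with all members not in the key in grey. Grey fills most of each YC bar, while 1 to 3 coloured genes fill most of each pBIC bar and differ between mice, except that Ighv2-9 fills pBIC 2 (92.2%) and pBIC 5 (94.9%).

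The share of the most counted gene was 6.86, 8.89 and 8.54% in YC (mean 8.09% ± 1.08, SD, n = 3), 38.7, 68.3 and 32.5% in BIC (46.5% ± 19.1, n = 3) and 30.1 to 94.9% with a median of 73.6% in pBIC (67.1% ± 30.5, n = 6). Every BIC and pBIC library was above every YC library, and BIC and pBIC overlapped. Exact two-sided permutation tests over libraries gave p = 0.1 between BIC and YC, the smallest that 3 against 3 mice allow. They gave 0.0238 between pBIC and YC, the smallest that 6 against 3 allow, and 0.357 between the 2 models. Adjusted over the 15 tests of 5 measures in 3 comparisons, these were 0.3, 0.179 and 0.446, so none passed 0.05. With p limited in this way, passing would have needed many of the 15 tests at their limits at once.

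The effective number of V genes, the exponential of the Shannon entropy of the shares, states how many equally used genes would give the same evenness. It was 57.7, 52.9 and 56.6 in YC, 6.93, 2.53 and 9.60 in BIC, and 4.37, 1.55, 7.00, 3.85, 1.24 and 1.37 in pBIC 1 to 6. The lowest YC value was above the highest of any tumour library, and BIC and pBIC overlapped. The group means were 55.7 ± 2.55 (SD, n = 3), 6.35 ± 3.57 (n = 3) and 3.23 ± 2.28 (n = 6), with exact permutation p of 0.1, 0.0238 and 0.214 for the same 3 comparisons (adjusted 0.3, 0.179 and 0.393).

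The groups joined at 90% identity, which mix subgroups in part, were also counted as 1 each. The effective number was then 8.80 to 10.2 in YC, 2.05 to 4.06 in BIC and 1.01 to 5.41 in pBIC, again without overlap with YC. In pBIC 1, where the 5 leading genes are all Ighv5, joining took it from 4.37 to 1.08, and in pBIC 3 from 7.00 to 5.41. The share of the most counted group then overlapped between pBIC and YC (31.3% in pBIC 3, against 25.4 to 41.8% in YC). Members with at least 1% of the counts numbered 8, 4 and 10 in BIC, and 5, 2, 7, 5, 2 and 3 in pBIC 1 to 6.

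**Figure D2:**
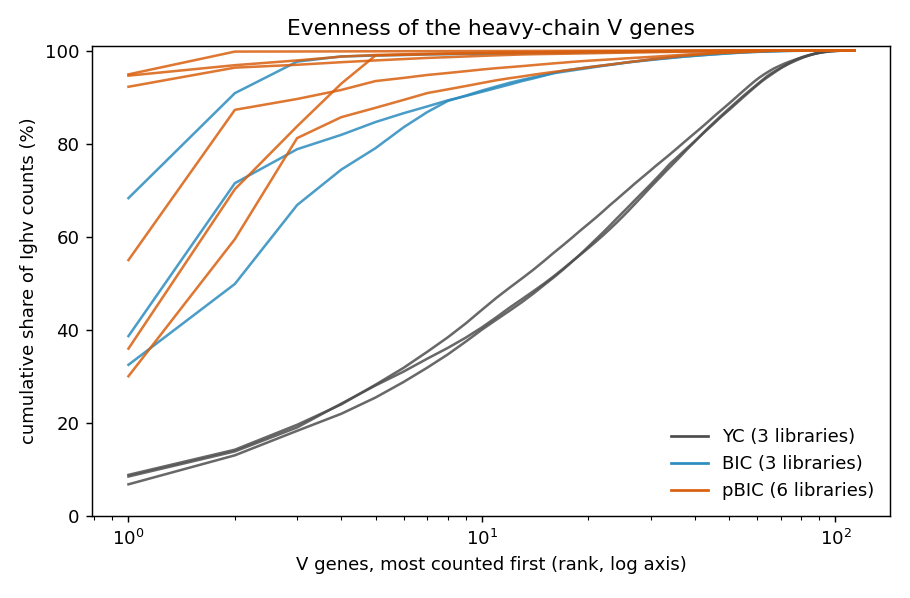
Cumulative share of Ighv counts (y axis, percent) over the 113 members ranked from most to least counted within each library (x axis, log scale), 1 line per library. The YC lines start below 9% and climb slowly, and every BIC and pBIC line starts at 30.1% or higher.

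Members without any count were 5, 3 and 7 in YC, 31, 39 and 27 in BIC, and 66, 41, 50, 41, 78 and 63 in pBIC 1 to 6. Every tumour library had more members at 0 than any YC library. A count of 0 allows a share of up to 0.00360 to 0.0535% of Ighv counts, depending on the library, with the highest limit in pBIC 3. Ighv16-1 was at 0 in all 12 libraries, and 6 members had counts in YC but in no BIC or pBIC library (Ighv1-16, Ighv1-24, Ighv8-4, Ighv8-6, Ighv8-9 and Ighv8-13).

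How far 2 mice used the same V genes was measured as the shared share, the sum over members of the smaller of the 2 shares. Pairs of YC mice shared 70.3, 76.3 and 69.4%. Pairs of BIC mice shared 2.16, 7.997 and 24.0%. The 15 pairs of pBIC mice shared 0.259 to 96.5%, with a median of 1.69%. Each YC pair was thus above every BIC pair, and pBIC pairs were spread over nearly the whole scale.

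The highest shared share among the tumours was between pBIC 2 and pBIC 5 (96.5%), and the next was between BIC 3 and pBIC 1 (50.8%), which both used Ighv5-4, Ighv5-12, Ighv5-6, Ighv5-9 and Ighv5-9-1. Between a BIC mouse and a YC mouse it was 7.12 to 29.7%, and between a pBIC mouse and a YC mouse 1.76 to 12.04%.

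Libraries pBIC 2 and pBIC 5 were alike in the other immunoglobulin segments too. The light-chain V gene Igkv19-93 held 96.4 and 99.5% of their Igkv counts, and Ighj1 held 51.7 and 63.5% of their Ighj counts. Ighj1 was not particular to this pair, as it also led pBIC 3 with 57.5%. Outside the immunoglobulin genes, their log2(CPM + 1) values correlated at Pearson r = 0.969 across 12337 genes, against 0.882 to 0.950 for the other pBIC pairs (a description across genes, which are not independent). The design text counts 6 pBIC mice, and whether 1 tumour gave both was not tested. With their mean used as 1 sample, the share of the most counted gene in pBIC was 53.8 percentage points above YC (exact permutation p = 0.0357, the smallest that 5 against 3 allow), where it was 59.04 points (p = 0.0238) with all 6 libraries. By contrast pBIC 1 and pBIC 3 shared the leading light-chain gene Igkv12-44 (62.6 and 92.7%) but 1.30% of the heavy-chain V counts.

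**Figure D3:**
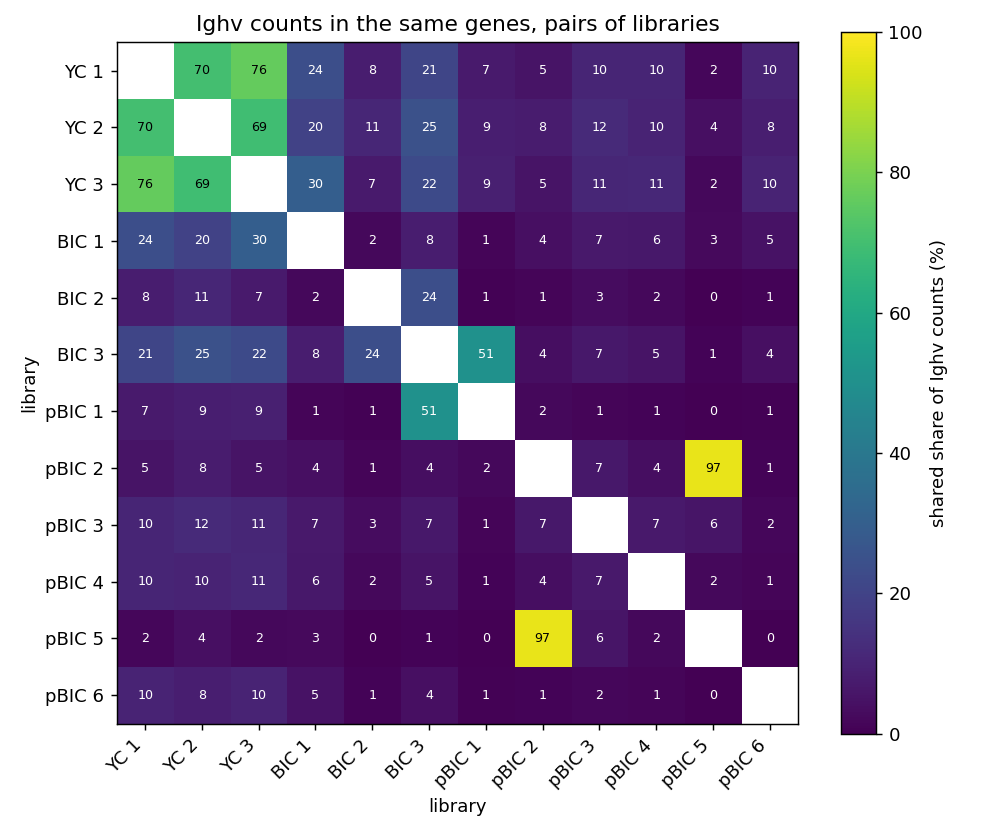
Shared share of Ighv counts (colour and number, percent) for each pair of the 12 libraries (both axes). The 3 YC libraries form a block of 69 to 76%, pBIC 2 with pBIC 5 reaches 97% and BIC 3 with pBIC 1 reaches 51%, while the next highest pair of tumour libraries is BIC 2 with BIC 3 at 24%.

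By subgroup, the YC mice were more alike than the tumours. Ighv1 held 48.1, 53.1 and 53.4% of the counts in YC, close to its 46.9% of the members. It held 89.2, 68.7 and 8.36% in BIC and 0.270, 0.586, 32.7, 91.5, 0.0849 and 4.47% in pBIC 1 to 6. The means were 51.5% ± 2.96 (SD, n = 3), 55.4% ± 42.0 (n = 3) and 21.6% ± 36.5 (n = 6). No difference passed the exact permutation test (p = 1 between BIC and YC, 0.167 between pBIC and YC, 0.262 between the 2 models), and without the most counted gene of each library the mean of BIC was 15.3 percentage points below that of YC, in place of 3.89 above. Ighv1 held most counts in BIC 1, BIC 2 and pBIC 4 and at most 8.36% in BIC 3 and 4 pBIC mice.

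Each of the smaller subgroups that was high was so in 1 to 3 tumours. Ighv5 was at 10.2, 10.1 and 9.90% in YC, at 2.30, 0.293 and 49.96% in BIC, and reached 99.1% in pBIC 1. Ighv2 was at 6.92, 12.3 and 9.22% in YC, 96.4% in pBIC 2, 99.9% in pBIC 5 and 31.5% in pBIC 3. Ighv9 reached 94.8% in pBIC 6. Ighv14 (4 genes) was at 6.68, 3.35 and 3.81% in YC and at most 0.408% in any BIC or pBIC library, and it led no tumour. Ighv6 (5 genes) was at 3.14 to 3.26% in YC and 0.00514 to 1.74% in the tumours.

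**Figure D4:**
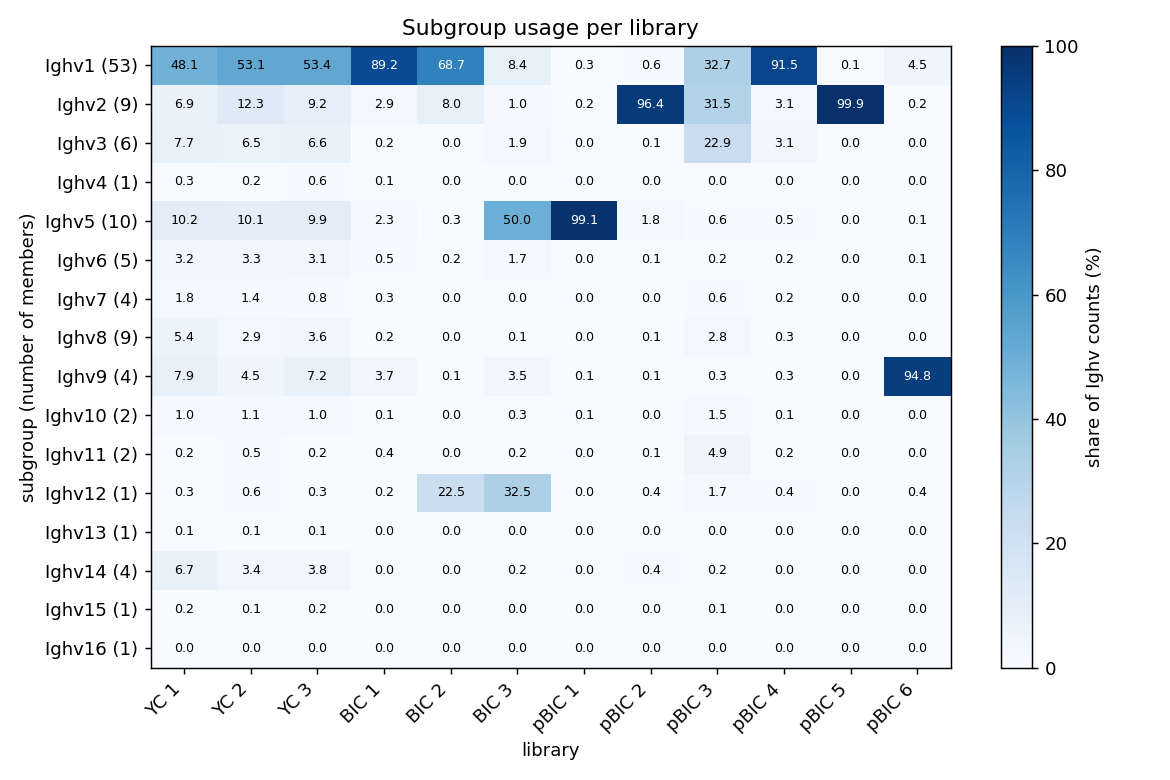
Share of Ighv counts (colour and number, percent) in each subgroup (rows, with the number of members in brackets) and library (columns). The 3 YC columns are close in Ighv1 (48.1 to 53.4%) and differ more in some smaller subgroups, such as Ighv14 (3.35 to 6.68%). The tumour columns are each dominated by 1 to 3 subgroups.

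The place of the counts along the locus was taken as the count-weighted mean distance from Ighv5-2, the member nearest to D and J, by the lowest Start of each gene. It was 1.08, 1.02 and 1.10 Mb in YC, 1.65, 0.878 and 0.526 Mb in BIC, and 0.0802, 0.304, 0.640, 1.72, 0.297 and 0.591 Mb in pBIC 1 to 6. In pBIC, 5 of 6 mice were nearer to D and J than every YC mouse, and pBIC 4 was farther than any of them. The means were 1.07 Mb ± 0.0422 (SD, n = 3), 1.02 Mb ± 0.574 (n = 3) and 0.606 Mb ± 0.585 (n = 6), and the differences did not pass (exact permutation p = 0.9, 0.238 and 0.310). Without pBIC 4 the difference between pBIC and YC went from −0.462 to −0.685 Mb. That library was singled out after its value was seen, so this is a description and no p is given.

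Cut by gene order into parts of 37, 38 and 38 genes, YC used all 3 parts, with 31.4 to 34.0% of the counts in the 37 genes nearest to D and J. These 37 genes, none of which is an Ighv1 gene, held 9.75, 8.46 and 55.2% in BIC and 99.5, 98.8, 59.8, 6.56, 99.9 and 95.05% in pBIC 1 to 6. The 38 farthest genes, 30 of them Ighv1, held 25.3 to 38.7% in YC, 87.2% in BIC 1 and 90.7% in pBIC 4. In BIC 2, the middle part held 91.2%, through Ighv1-9 and Ighv12-3. Place and subgroup are not separate measures here, since Ighv1 makes up most of the far part.

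**Figure D5:**
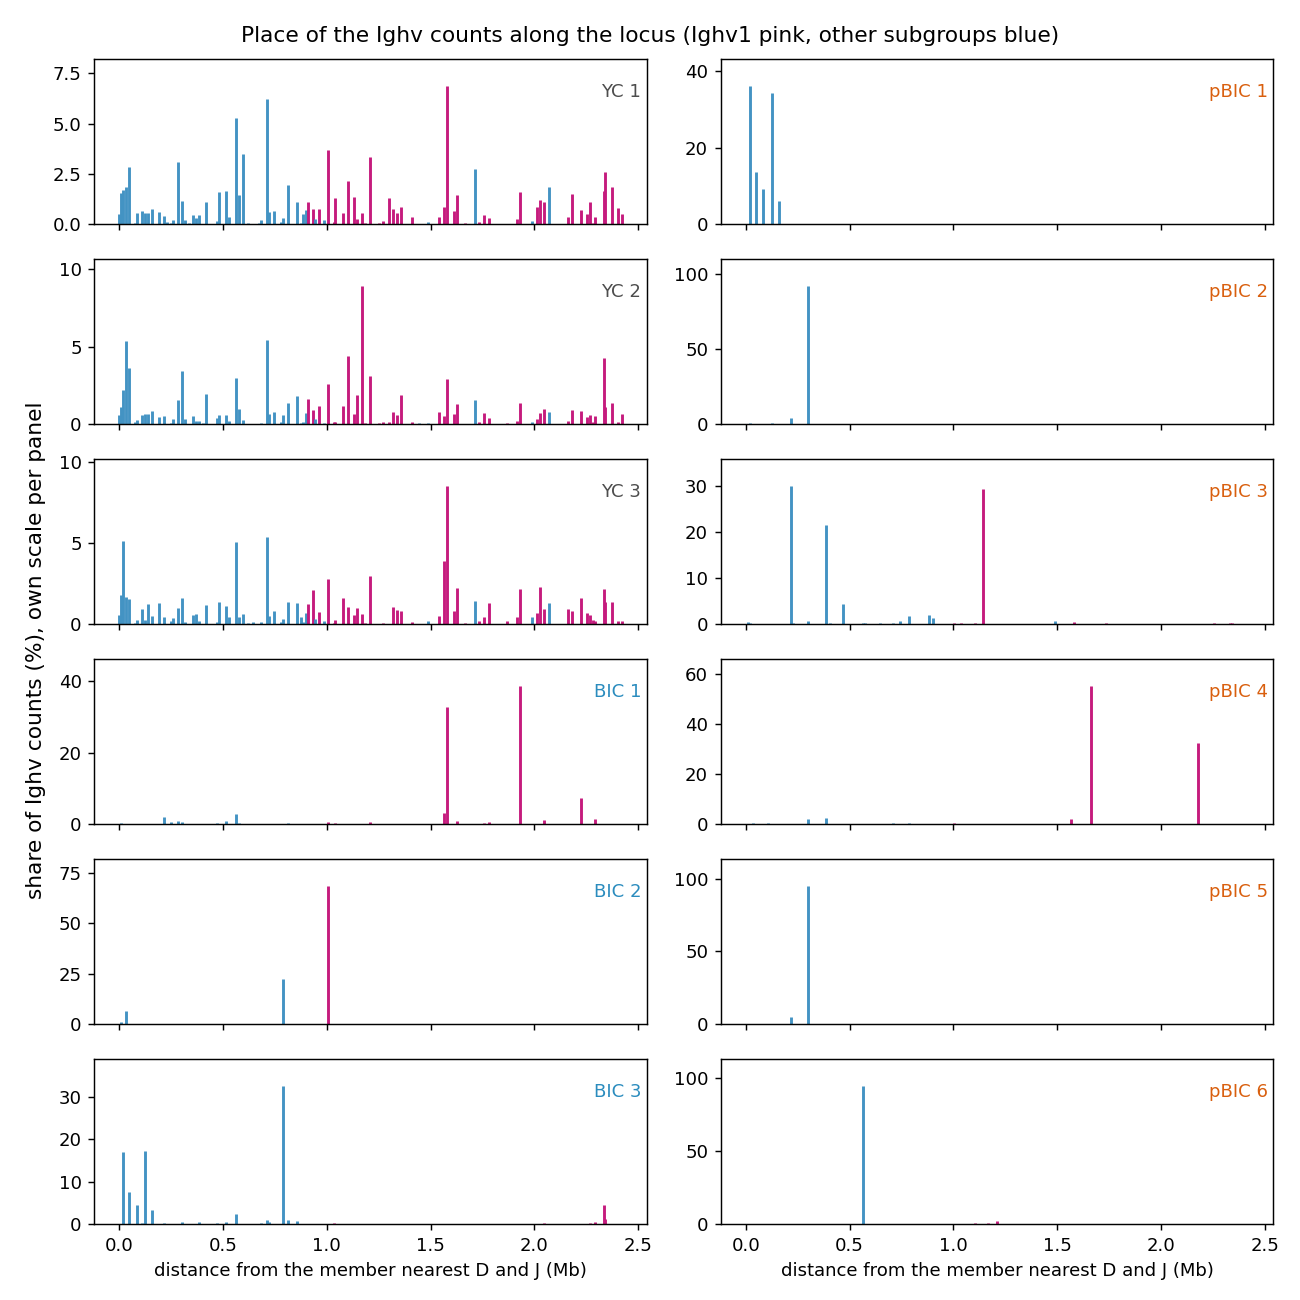
Share of Ighv counts (y axis, percent, with its own scale in each panel) of each member against its distance from the member nearest to D and J (x axis, Mb), 1 panel per library, with Ighv1 genes in pink and the rest in blue. The YC panels show many short lines over the whole locus, and the tumour panels show a few tall lines at places that differ between mice.

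The amount of V gene RNA varied among the tumours. Ighv counts made up 0.156, 0.187 and 0.172% of all gene counts in YC, 0.0647, 0.169 and 0.0763% in BIC, and 0.0716, 0.114, 0.0154, 0.0244, 0.180 and 0.0652% in pBIC 1 to 6. The highest BIC and pBIC libraries reached the YC range, so the groups overlapped. The means were 0.172% ± 0.0155 (SD, n = 3), 0.103% ± 0.0573 (n = 3) and 0.0785% ± 0.0612 (n = 6), with exact permutation p of 0.2, 0.0714 and 0.476. Per 100 counts of the 8 heavy-chain constant genes, Ighv counts were 12.7, 14.7 and 13.9 in YC, 8.20, 19.9 and 11.1 in BIC, and 11.4, 17.6, 5.14, 5.99, 19.1 and 13.9 in pBIC 1 to 6.

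The constant gene that led each library differed among the tumours. Ighm, the gene of IgM, held 70.7 to 73.2% of the constant counts in YC and led BIC 3 and pBIC 1, 2, 5 and 6. Ighg3 led BIC 1 (69.0%) and BIC 2 (58.0%), Ighg2b led pBIC 3 (85.2%) and Ighg1 led pBIC 4 (68.6%).

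In pBIC 3, most V-type counts lay outside the members. The pseudogene entry Ighv3-2 (chr12:114033803-114034233) had 6733 counts there, 53.8% of Ighv and pseudogene counts together, and all pseudogene entries had 55.1%. In YC all pseudogene entries together had 3.50 to 4.33%, and Ighv3-2 had 607 to 971 counts per library. Ighv3-2 had 669 counts in pBIC 4, 915 in BIC 3 and 54 or fewer in every other tumour library. The member Ighv3-1 was high in the same 2 pBIC libraries, and whether reads of 1 rearranged gene were divided between these entries was not tested. With pseudogene entries added, pBIC 3 had 11.5 V-type counts per 100 constant counts in place of 5.14.

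Gene by gene, edgeR's quasi-likelihood test was applied to all 17754 genes that passed its filter on low counts. Of the 113 members, 100 passed and 13 were left out. Of these 100, 58 reached the filter's level in fewer than 3 BIC and pBIC libraries and so needed YC libraries to pass. Passing in this way favours genes that are lower in the tumours, though it does not force it. Ighv1-56, which led pBIC 4, was of this kind, as was Ighv6-4, at the level in 1 YC and 2 BIC libraries. The counts of called members are therefore a description only. A named gene of this kind is given with its values and fold change but no p. CPM below are scaled with TMM factors.

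In BIC against YC, 38 of the 100 members were called lower and 0 higher by edgeR at an adjusted p under 0.05, where 8.88% of all tested genes were called (4.97% lower and 3.9% higher). At an unadjusted p under 0.05, 1 member was higher, and DESeq2 called 1 higher (Ighv12-3). The median log2 fold change of the tested members was −4.66, against 0.01 for all tested genes. Values of all BIC mice were below those of all YC mice for 79 tested members, where 45.2% of all tested genes had groups without overlap (23.2% lower). Leaving out BIC 2 reduced the 38 to 20, and leaving out BIC 1 or any YC library reduced it to 23 or 24. Without BIC 1, 23 of the 24 were lower and 1 was higher. The number of called members thus depends on the libraries kept, and each such fit also has fewer mice.

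The 6 members ranked first by p came mostly from Ighv1, and 5 of them had passed the filter through YC. Ighv1-67 had 878, 613 and 1315 counts in YC, 2, 4 and 2 in BIC and 0 to 6 in pBIC. All tumour values were far below all YC values, and its log2 fold change in BIC was −8.40. Ighv1-42 had 620, 1564 and 453 counts in YC and 5, 0 and 2 in BIC, a log2 fold change of −8.41. Ighv1-39 (416, 483 and 490 counts in YC, 1, 0 and 2 in BIC), Ighv1-7 and Ighv1-85 were of the same kind. Ighv2-6, which also reached the filter's level in 1 BIC and 2 pBIC libraries, had 387, 573 and 719 counts in YC and 6, 11 and 4 in BIC (log2 fold change −6.29 ± 0.97, SE, adjusted p = 0.00377 by edgeR). None of these 6 genes led any library, tumour or control.

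In pBIC against YC, 79 of the 100 members were called lower and 0 higher by edgeR, where 22% of all tested genes were called (10.2% lower and 11.8% higher). No member was higher at an unadjusted p under 0.05 (0 of 100), and DESeq2 called 0 higher. The median log2 fold change of tested members was −6.95, against 0.1 for all genes. The groups did not overlap for 83 members, all lower, where this held for 26.1% of all tested genes (13.2% lower). Leaving out any 1 library left 72 to 81 called.

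Of the 6 members ranked first by p, Ighv1-7, Ighv1-67, Ighv1-42 and Ighv1-82 had passed the filter through YC. Ighv1-7 had 558, 982 and 423 counts in YC and 0 to 4 in pBIC, a log2 fold change of −8.24, and that of Ighv1-67 was −8.66. Ighv6-6 and Ighv8-8 also reached the filter's level in all 3 BIC libraries. Ighv6-6 had 814, 1500 and 754 counts in YC, 54, 25 and 216 in BIC and 1 to 14 in pBIC (log2 fold change in pBIC −7.61 ± 0.78, edgeR adjusted p = 0.000177). Ighv8-8 had 2005, 1320 and 820 counts in YC, 24, 12 and 14 in BIC and 0 to 8 in pBIC (log2 fold change −9.08 ± 0.99, edgeR adjusted p = 0.000231). All 6 were lower in every pBIC mouse than in any YC mouse.

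The leading genes of single tumours were not called higher in pBIC. Ighv2-9 was at 92.2 and 94.9% of Ighv counts in 2 pBIC mice and at 0.0933 to 1.91% in the other 4. Ighv9-3 was at 94.6% in 1 pBIC mouse and at most 0.321% in the other 5. A gene that did not pass is not shown to be unchanged.

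In pBIC against BIC, 30 of the 100 members were called lower and 0 higher by edgeR, where 19.7% of all tested genes were called (8.78% lower and 10.9% higher). At an unadjusted p under 0.05, 1 member was higher, and DESeq2 called 1 higher (Ighv2-9). The median log2 fold change of tested members was −1.66, against 0.09 for all genes. The groups did not overlap for 10 members, all lower, where this held for 21.6% of all tested genes (9.91% lower), so the members' share was that of all genes. The 30 fell to 14 of 102 without BIC 1. With BIC and pBIC alone in the fit, 42 members passed the filter and 13 of them were called.

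Ighv1-11 had 20, 20 and 68 counts in BIC, 64, 108 and 46 in YC and 0 in all 6 pBIC libraries. Pooled over libraries it was at least 75.4-fold lower in pBIC than in BIC, taking 3 counts over the pBIC group as the limit. It reached the filter's level in 3 YC, 3 BIC and 0 pBIC libraries, and so passed through groups where it was high. For Ighv1-80 and Ighv6-6 these numbers were 3, 3 and 1, and those of Ighv6-3 were 3, 3 and 2. No p is given for these genes in this comparison. Ighv1-80 had 26, 74 and 1215 counts in BIC and 2 to 12 in pBIC (log2 fold change −6.77). The size of this change rested on BIC 3, without which the log2 fold change was −3.55. Ighv6-6 and Ighv6-3 were also lower, with log2 fold changes of −4.39 and −3.83 and no overlap, and that of Ighv6-6 was −2.93 without BIC 3.

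Leaders of single BIC mice were called in the same comparison. Ighv12-3 had 54, 14558 and 8857 counts in BIC and 6 to 204 in pBIC, so the groups overlapped through BIC 1, with a log2 fold change of −6.90 ± 1.27 (edgeR adjusted p = 0.00415). Ighv1-9 had 155, 44116 and 41 counts in BIC and 10 to 50 in pBIC, with a log2 fold change of −9.28 ± 1.62 (edgeR adjusted p = 0.00332). Without BIC 2 its log2 fold change was −1.85 and the adjusted p was 0.0600, so that call rested on 1 mouse.

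The genes that assemble and diversify the heavy-chain locus were read from the same fit, as 14 genes of which 12 were tested. In BIC against YC, 2 were called lower and 0 higher by edgeR, with 0 higher at an unadjusted p under 0.05 and by DESeq2. Over all tested genes, edgeR called 4.97% lower and 3.9% higher. Polh, a polymerase that copies past damaged bases and acts in somatic hypermutation, was at 62.7, 99.04 and 111 CPM in YC and 23.9, 21.2 and 33.9 CPM in BIC, with a log2 fold change of −1.79 ± 0.28 (adjusted p = 0.00377 by edgeR). The groups did not overlap. The other was the mismatch repair gene Msh6 (log2 fold change −1.46, edgeR adjusted p = 0.0306), which lost its call without any 1 of 5 libraries (YC 2, YC 3, BIC 1, BIC 2 or BIC 3), with adjusted p of 0.0717 to 0.112.

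In pBIC against YC, 1 of the 12 was called lower and 2 higher. Over all tested genes, 10.2% were called lower and 11.8% higher, so the list was near that share. Polh was again the gene called lower (28.0 to 50.7 CPM, log2 fold change −1.26, edgeR adjusted p = 0.00248). Xrcc5 and Xrcc6, which encode the Ku proteins of end joining, were called higher, and the call of Xrcc6 (log2 fold change 1.21, edgeR adjusted p = 0.0471) was lost in 9 of 12 fits with 1 library left out: any YC library (0.0962 to 0.161), any BIC library, or pBIC 2, 3 or 5 (0.0571 to 0.0665).

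In pBIC against BIC, Exo1 and Xrcc5 were called higher and Xrcc4 lower. Over all tested genes, 10.9% were called higher and 8.78% lower, so the list was again near that share. Exo1, an exonuclease of mismatch repair, was at 3.70, 5.56 and 10.4 CPM in BIC and 16.8 to 65.1 CPM (median 46.0 CPM) in pBIC (log2 fold change 2.65 ± 0.48, edgeR adjusted p = 0.00394). The 2 groups did not overlap. The call of Xrcc5 (log2 fold change 0.67, edgeR adjusted p = 0.0466) was lost in 10 of 12 fits with 1 library left out, all but those without pBIC 1 or pBIC 4, with adjusted p of up to 0.211. The call of Xrcc4 (−0.69, edgeR adjusted p = 0.0494) was lost in 9 of 12, all but those without pBIC 1, 2 or 6, with adjusted p of up to 0.188.

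The recombinase genes themselves were near 0 in 11 libraries. Rag1 was at 0 to 1.27 CPM there and at 364 CPM in pBIC 4, and Rag2 was at 0 to 0.0545 CPM there and at 10.9 CPM in pBIC 4. In that library Vpreb1 and Igll1, the surrogate light-chain genes of early B cell precursors, were at 0 CPM, and Dntt was at 0.463 CPM. Rag1 passed no test of groups (edgeR adjusted p = 0.173 for pBIC against YC).

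Among the 8 constant genes, Igha and Ighd were called lower in BIC against YC, Igha, Ighd and Ighe in pBIC against YC, and Igha and Ighg3 in pBIC against BIC. Over all tested genes, 4.97, 10.2 and 8.78% were called lower in these comparisons. Ighd, the gene of IgD, was at 561, 613 and 576 CPM in YC, at 44.3, 59.7 and 89.9 CPM in BIC and at 8.37 to 52.2 CPM (median 28.5 CPM) in pBIC. Neither tumour group overlapped YC (log2 fold changes −3.17 ± 0.54 and −4.38 ± 0.43, edgeR adjusted p = 0.00559 and 0.000129). The call of Ighe was lost without YC 1 (edgeR adjusted p = 0.0812).

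Of 6 plasma cell genes, edgeR called 3 lower in pBIC against YC (Jchain, Sdc1 and Xbp1), where it called 10.2% of all tested genes lower. It called 0 in BIC against YC, with 2 lower and 1 higher at an unadjusted p under 0.05, and 0 in pBIC against BIC, with 0 at that level. DESeq2 called 0 in both, and Sdc1 and Xbp1 lower in pBIC against YC. It gave no p for Jchain in any comparison. Plasma cells hold far more immunoglobulin RNA than other B cells. Jchain, which encodes the joining chain of IgM and IgA polymers, was at 590, 620 and 666 CPM in YC, at 53.2, 5.99 and 8.53 CPM in BIC, and at 0.663 to 64.4 CPM (median 1.61 CPM) in pBIC (log2 fold change −5.63 ± 1.37, edgeR adjusted p = 0.0125, and −8.14 without pBIC 5). Every tumour library was below every YC library. Without the filter on low counts the edgeR adjusted p of Jchain was 0.0556, and the call of Xbp1 was lost without any 1 YC library (0.0625 to 0.109). Not all genes of the list were lower. Mzb1 was at 241, 314 and 366 CPM in YC, 885, 739 and 290 CPM in BIC and 264 to 741 CPM (median 412 CPM) in pBIC, with overlap. Tnfrsf17 was at most 2.59 CPM in any library. The summed plasma cell list was at 1712 to 2033 CPM in YC, 539 to 1353 CPM in BIC and 442 to 1344 CPM in pBIC, and its part in the V gene values was not tested.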

How the data were processed

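Each library has 1 deposited table of raw counts, the reads assigned to each gene. The authors made them with featureCounts 1.5.0 over GENCODE M13 exons, per the file headers, with no paired, strand or multi-mapping option. Mates therefore count separately, antisense reads cannot be told apart, and reads that match 2 V genes equally well are missing. FastQC, STAR, edgeR, limma, mm10 and GRCm38 are also named, per the submitters' processing notes, with STAR's settings not given in the sources used here. Names and biotypes came from GENCODE M21 (50462 of 50686 identifiers matched).

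Counts were tested with edgeR 4.0.16 (R 4.3.3; TMM, expression filter with a minimum count of 10, robust quasi-likelihood F test over all 12 libraries, Benjamini-Hochberg adjustment over 17754 genes, called at an adjusted p under 0.05). SE were derived from the log2 fold change and its F statistic, and restate the test. Shares, effective number, Ighv1 share and mean place were compared with exact two-sided permutation tests (scipy 1.17.1), adjusted over 15. Identities came from pairwise alignment with free end gaps and no minimum overlap (Biopython 1.88). Wilson intervals (95%) and the 3-count limit reflect counting error alone, as reads carried no molecular identifiers. The sample labels say of the replicates that they were separate mice, and the names of the pBIC tables carry 2 tags that no label explains and that were not used. The edgeR procedure was tested on simulated data. DESeq2 1.42.0 was an alternative.

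The members and gene lists were chosen with earlier results of these data known. Named genes were the 3 most counted members per library, the 5 with the highest mean share in YC, up to 6 called members per direction and comparison by p, and called genes of the lists. Others (Ighv5-9, Ighv5-9-1 and members at 0) were chosen after their values were seen. Groups came from the sample titles, and no library was left out. The promoters of the members are not used here. Some genes of the lists are not reported here, and the counts and sums of those lists were taken over the other genes.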

Additional observations from a re-analysis of the deposited data

Results flagged for a closer look

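In pBIC, the group of 6 mice, 19 of 34 values had 1 library farther from the rest than a gap test for single outlying values allows. Chance gives about 1 in 20, and the genes put to it were largely chosen for being high in 1 library, so this number is a description. pBIC 4 stood apart in the Ighv1 share (91.5%) and the mean place (1.72 Mb), and with Ighv1-56 (55.02%), Ighv1-72 (32.3%) and Ighv2-3 (0.359% of Ighv counts). The same library stood apart in Rag1 (364 CPM), Rag2 (10.9 CPM) and Xrcc6 (212 CPM).

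pBIC 3 stood apart in Ighv2-6-8 (30.1%), Ighv1-20 (29.4%), Ighv3-1 (21.7%) and Ighv12-3 (1.69%). pBIC 1 stood apart in Ighv5-4 (36.0%), Ighv5-12 (34.2%) and Ighv5-6 (13.5%), and pBIC 6 in Ighv9-3 (94.6%), Ighv1-26 (2.25%) and Ighv1-22 (1.02%). pBIC 5 stood apart in Jchain (64.4 CPM).

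Outside the members, the V pseudogene entries held 55.1% of Ighv and pseudogene counts in pBIC 3 and 7.53% in pBIC 4, above the highest YC library (4.33%).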

How the results depend on the processing

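The share of the most counted gene and the effective number kept their direction under every setting run (44 of 44 each), and the Ighv share of all counts did so in 32 of 32. No adjusted p of these measures passed in any of them, which the limits on p with so few mice made hard. The Ighv1 share for BIC against YC, a difference of 3.89 percentage points, turned to −15.3 without the most counted gene of each library, −13.7 with genes counted once, −3.53 per unique stretch, and ran from −13.0 (without BIC 1) to 27.4 with 1 library left out, with −2.77 without BIC 2. For pBIC against BIC, −33.8 turned to 4.73 without the most counted gene. The mean place for BIC against YC, −0.0501 Mb, ran from −0.366 to 0.196 Mb with 1 library left out, and was above 0 without BIC 2 (0.0197) or BIC 3. The cause was not tested.

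Called members for BIC against YC (38 of 100 tested) became 60 of 99 in a fit of the 2 groups and 20 to 45 with 1 library left out. For pBIC against BIC, 30 of 100 became 13 of 42 in a fit of the 2 groups, where fewer members passed the filter, 9 with the replicate number as a block and 14 to 30 with 1 library left out. DESeq2 called 55, 75 and 30 members in the 3 comparisons, of which 1, 0 and 1 were higher. The deviations of same-numbered mice from their group means correlated at −0.095 to 0.155. Mice of different number were not compared in this way, so whether same-numbered mice shared a batch was not tested. With the block, 44, 71 and 9 members were called, 30, 67 and 6 of them also without it. It ended the calls of Ighv1-9 (pBIC against BIC, adjusted p = 0.130) and Sdc1 (pBIC against YC, 0.0831). Of the values of single genes, 628 kept their call and 54 lost it. Depth limits shares under 0.0535% in pBIC 3.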
